A study of Mus musculus with 12 samples.

Results

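Ezh1, Ezh2, Eed, Rbbp4, Phf19, Aebp2, Exosc3, Exosc6, Mphosph6 and Rbm7 encode parts of Polycomb repressive complex 2 (PRC2) or of the nuclear RNA exosome and its cofactors. They were chosen by measured values, from earlier results on these files. Each of the 10 genes has at least 1 of 3 features. These are a candidate mRNA or a candidate promoter-associated non-coding RNA (ncRNA) in a Mirlet7d pull-down, and a Mirlet7d ChIRP-seq peak nearest to the gene. Suz12, Tent4b and Tent4a meet the same rule but are not among the 10, and are described further below. All 10 were found, with 11 entries in all, among 5681 genes with a curated RefSeq transcript that stand in any of these 3 tables. Of the 10 genes, 3 were in the mRNA table, 4 in the promoter ncRNA table and 4 beside a peak, and Ezh1 was the 1 gene found in 2 tables.

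The cells were MLE-12, a mouse lung epithelial line made with a viral large T antigen under a surfactant protein C promoter. In the pull-down, RNA bound to transfected biotinylated Mirlet7d (25 nM, harvest after 48 h) was captured on streptavidin beads and set against an input RNA library. In ChIRP-seq, 150 pmol of biotinylated probes against mature Mirlet7d were mixed with chromatin for 4 h, and the captured DNA was sequenced beside an input library labelled as control. The ChIRP library carries the label Mirlet7d under gain of function, and its cells were kept in another medium than those of the RNA libraries. Each of these groups is 1 library, no capture with an unrelated microRNA or probe was analysed here, and no value below has a replicate error. The tables are selected lists and not expression tables. Of 10 markers of lung epithelium, Muc1 was an mRNA candidate and Sftpb, Nkx2-1, Cdh1 and Krt18 were nearest to peaks. A peak is captured DNA and gives no RNA level. Levels of the markers other than Muc1 cannot be read from these lists.

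PRC2 methylates a lysine of histone H3 and keeps developmental genes silent. Ezh1 and Ezh2 are its alternative catalytic subunits, Eed reads the mark, Suz12 is the scaffold, Rbbp4 and Rbbp7 hold histones, and factors such as Phf19 and Aebp2 help bring the complex to chromatin. The exosome is a barrel of subunits named Exosc with attached nucleases that trims or destroys RNA in the nucleus, and cofactors such as Mphosph6, C1d and Rbm7 guide it to its substrates. The series asks about a nuclear complex formed around Mirlet7d, which in the study's naming joins the microRNA with C1D, the nuclease EXOSC10 and EZH2.

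Mirlet7d itself is shown first, because it was the bait of the pull-down and the ChIRP probes were made against it. The labels do not say which arm was used. Both mature arms are given from RefSeq (GRCm38.p6, chromosome 13, minus strand), with the seed, bases 2 to 8, in capitals.
mmu-let-7d-5p: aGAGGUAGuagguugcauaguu
mmu-let-7d-3p: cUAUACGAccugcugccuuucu
The seed of the 5p arm was shared by 9 of the 21 mature let-7 names in the RefSeq table, and that of the 3p arm by 1, its own.

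For the 4 genes with a promoter ncRNA, the promoter around which that ncRNA was pulled down is shown from RefSeq (GRCm38.p6, 250 bases before to 50 after the start). Capitals mark each CG dinucleotide, the feature counted here because CpG-rich promoters are a textbook place of PRC2 binding.
Rbbp4, chr4:129335321-129335620, minus strand: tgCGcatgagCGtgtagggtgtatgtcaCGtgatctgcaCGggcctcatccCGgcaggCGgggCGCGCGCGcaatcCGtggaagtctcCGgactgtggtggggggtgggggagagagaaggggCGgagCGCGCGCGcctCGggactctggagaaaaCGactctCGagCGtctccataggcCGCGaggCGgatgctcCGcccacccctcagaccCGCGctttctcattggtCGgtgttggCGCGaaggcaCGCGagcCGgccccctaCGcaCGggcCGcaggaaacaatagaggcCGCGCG
Phf19, chr2:34913927-34914226, minus strand: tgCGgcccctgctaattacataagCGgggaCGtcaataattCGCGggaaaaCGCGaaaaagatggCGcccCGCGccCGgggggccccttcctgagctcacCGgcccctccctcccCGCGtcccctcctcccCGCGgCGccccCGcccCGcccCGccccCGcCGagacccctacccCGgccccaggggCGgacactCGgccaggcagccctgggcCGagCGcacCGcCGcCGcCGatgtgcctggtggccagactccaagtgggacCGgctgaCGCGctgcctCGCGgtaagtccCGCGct
Rbm7, chr9:48495281-48495580, minus strand: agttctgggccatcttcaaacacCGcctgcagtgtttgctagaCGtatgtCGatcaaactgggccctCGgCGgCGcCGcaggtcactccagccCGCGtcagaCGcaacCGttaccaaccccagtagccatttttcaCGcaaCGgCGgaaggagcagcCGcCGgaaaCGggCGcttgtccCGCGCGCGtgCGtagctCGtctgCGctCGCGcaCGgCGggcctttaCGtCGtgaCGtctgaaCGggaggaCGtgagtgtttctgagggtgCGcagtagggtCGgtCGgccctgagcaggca
Ezh1, chr11:101226414-101226713, minus strand: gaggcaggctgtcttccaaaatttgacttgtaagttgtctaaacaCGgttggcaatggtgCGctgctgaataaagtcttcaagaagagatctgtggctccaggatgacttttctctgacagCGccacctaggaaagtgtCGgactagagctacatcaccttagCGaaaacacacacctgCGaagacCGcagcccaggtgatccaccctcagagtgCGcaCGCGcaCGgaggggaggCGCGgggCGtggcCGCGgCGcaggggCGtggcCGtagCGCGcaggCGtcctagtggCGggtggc
Rbbp4 had 39 CG in 300 bases, Phf19 38, Rbm7 37 and Ezh1 23, and the median over all 32851 RefSeq mouse promoters of this length was 7. More CG than most promoters was seen in all 4, since 95.55%, 95.05%, 94.42% and 78.48% of promoters held fewer. Over the 12 promoters of all 10 genes the number ran from 4 to 39, with a median of 23.5. The low end belongs to 2 alternative Aebp2 promoters with 4 each, while the third had 21. Of the other genes without a promoter ncRNA, Mphosph6 had 33, Ezh2 31, Exosc6 24, Eed 17 and Exosc3 12. High numbers were thus not limited to the genes with a promoter ncRNA. Promoters of RefSeq genes include many that are silent in these cells, and the comparison is a description.

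The letters that would pair with the seed of the 5p arm were searched in the same windows on both strands. CTACCTC, the match to bases 2 to 8, was in 0 of the 12 promoters and in 3.85% of all promoters. The shorter TACCTC, which lies inside it and matches bases 2 to 7, was in 1 of the 12 and in 10.0% of all. That match was in the promoter of Exosc6, at position -126 relative to the start, and is shown in capitals.
Exosc6, chr8:111056089-111056388, plus strand: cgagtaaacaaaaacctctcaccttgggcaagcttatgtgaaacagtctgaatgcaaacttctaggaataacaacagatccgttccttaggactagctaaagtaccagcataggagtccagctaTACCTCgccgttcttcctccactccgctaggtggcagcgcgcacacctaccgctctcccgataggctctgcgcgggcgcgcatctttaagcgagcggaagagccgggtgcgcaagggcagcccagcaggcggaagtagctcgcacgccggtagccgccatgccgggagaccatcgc
A match is a run of letters and not a shown site, and its absence says only that the letters are not in this window.

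The mRNA table held 3 of the 10 genes. Over all 26220 genes with a curated transcript 5.74% were in it, and since presence in the table chose the genes, nothing is read from that comparison. Values are RPKM over the whole span of a transcript, introns included. The fold is the ratio of pull-down to input that the authors deposited, and the table starts at 2.5. Intervals of the fold are 95% exact intervals from read numbers recovered from RPKM and span, and cover counting error only.

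Exosc3, an RNA-binding cap subunit of the exosome, had 0.209 RPKM in the input and 1.896 RPKM in the pull-down. Its fold was 9.07 (interval 5.78 to 15.1) from 20 input and 320 pull-down reads. Mphosph6, a cofactor that ties the helicase MTR4 to the exosome, had 0.135 RPKM in the input and 0.694 in the pull-down. The fold was 5.14 (3.596 to 7.636) from 33 and 300 reads. Eed, the PRC2 subunit that binds the methyl mark, had 0.287 RPKM in the input and 0.856 in the pull-down. With 180 and 947 reads its fold of 2.98 (2.54 to 3.52) was the most precise of these and the nearest to the listing limit. All 3 were higher in the pull-down library than in the input library, as listing requires. The intervals of Exosc3 and Eed do not overlap, whereas that of Mphosph6 overlaps the interval of Exosc3 from 5.78 to 7.64. In order of fold they stood at positions 574, 930 and 1637 of 1964 entries, whose median fold was 4.93.

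These 3 entries had more signal behind them than most of the table. The median input was 0.014 RPKM over the table and 0.135 to 0.287 RPKM for the 3 genes, and 75.5% to 83.4% of entries lay below them. Their pull-down levels exceeded those of 75.1% to 87.1% of entries. The spans differed, with 4016 bases for Exosc3 (chromosome 4, 45329485 to 45333501 in mm9) and 10284 for Mphosph6 (chromosome 8, 120315545 to 120325829). Eed spans 26327 bases (chromosome 7, 97103166 to 97129493), and the median of the table was 25830. Each gene was listed with a single transcript.

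**Figure D1:**
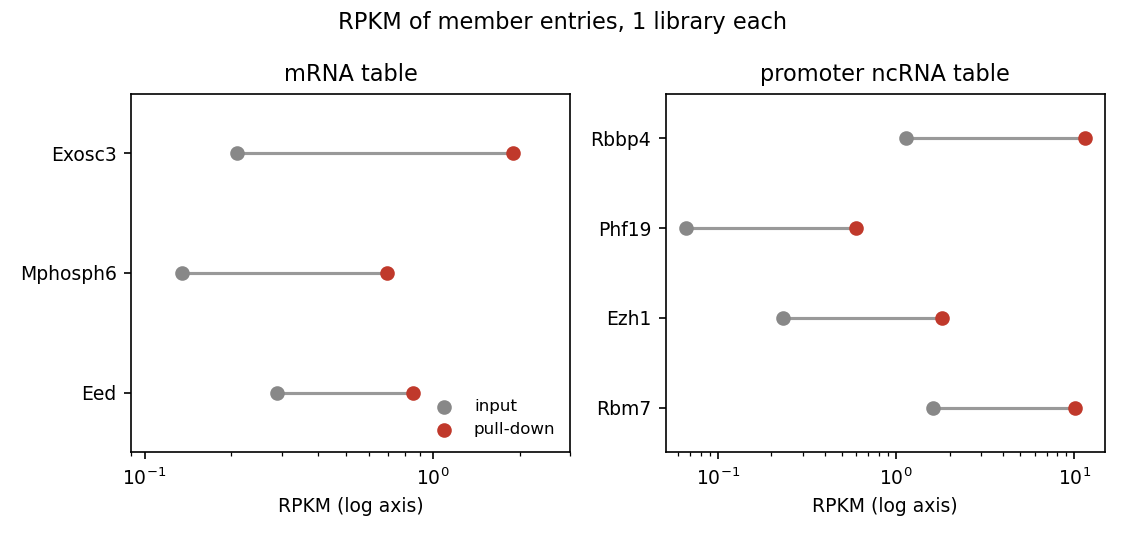
RPKM of the pull-down entries on log axes, with mRNA entries on the left and promoter ncRNA entries on the right. Grey points are the input library and red points the pull-down library, 1 library each, and every entry is higher in the pull-down, from 0.856 against 0.287 for Eed to 11.5 against 1.14 for Rbbp4. RPKM is not comparable between the panels.

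The promoter ncRNA table held 4 of the 10 genes, against 6.16% of the 26220 genes, and again presence in it chose them. The deposited feature places every ncRNA of this table within 2.5 kb of a transcription start site (TSS). The files name the ncRNAs by NONCODE identifier and give no strand. Here too the RPKM of this table are not comparable with those of the mRNA table, and reads were counted as pairs for the interval.

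Rbbp4, the histone-binding subunit that PRC2 shares with other chromatin complexes, had the highest fold of the 4. Its ncRNA NONMMUT049621 (chromosome 4, 129010496 to 129012492, mm9) had 1.14 RPKM in the input and 11.5 RPKM in the pull-down. That gave a fold of 10.06 (5.49 to 20.5) from 22 and 343 reads. The ncRNA at Phf19, a Polycomb-like accessory subunit, was NONMMUT036840 (chromosome 2, 34768391 to 34771534). It had 0.066 RPKM in the input and 0.595 in the pull-down, a fold of 9.02. With only 2 input and 28 pull-down reads the interval ran from 1.38 to 382, so this fold is barely bounded.

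The ncRNA at Ezh1 was NONMMUT012051 (chromosome 11, 101079709 to 101087756). It had 0.232 RPKM in the input and 1.82 in the pull-down, a fold of 7.84 (3.99 to 17.6) from 18 and 219 reads. The ncRNA at Rbm7, the RNA-binding subunit of the nuclear exosome targeting complex, was NONMMUT069010 (chromosome 9, 48300702 to 48303404). Its 1.61 RPKM in the input and 10.1 in the pull-down gave a fold of 6.25 (3.98 to 10.3) from 42 and 407 reads. All 4 intervals overlap, so the order of these folds is not settled, and 3 of the 4 lie above the listing limit of 2.5. Listing required a fold of at least 2.5 and the intervals make no allowance for that, so nothing is read from their place above it. The median of the 4 folds was 8.43, and the 2432 entries had a median fold of 5.13. The 4 genes were chosen from listed entries, so nothing is read from that difference either. By level the 4 fell into pairs: Rbbp4 and Rbm7 had more pull-down signal than 80.4% and 77.4% of entries, Ezh1 and Phf19 than 27.6% and 13.6%.

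**Figure D2:**
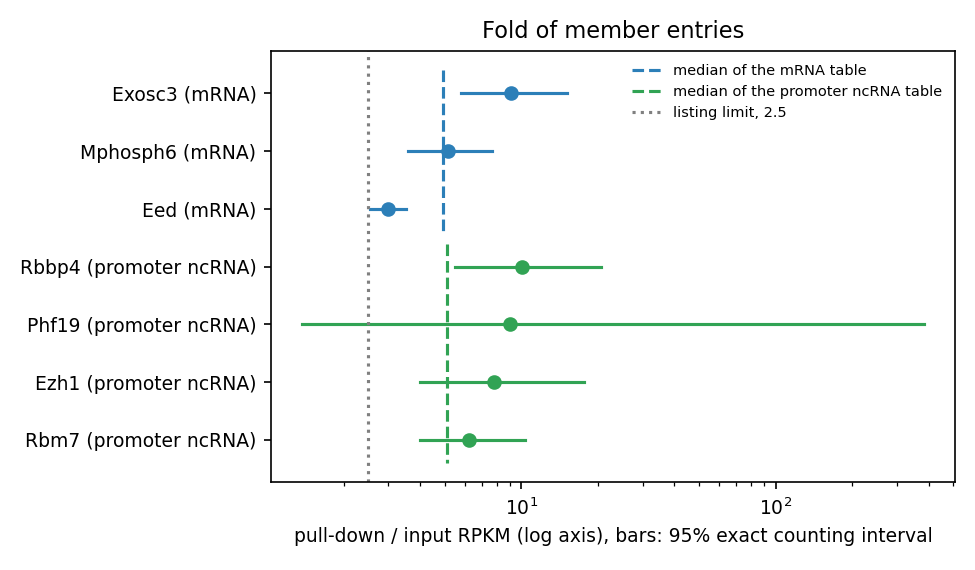
Fold of the 7 pull-down entries on a log axis, with 95% exact counting intervals as bars. Dashed lines are the medians of the mRNA table (4.93) and the promoter ncRNA table (5.13), and the dotted line is the listing limit of 2.5. The interval of Phf19 (1.38 to 382) is far wider than the others, and that of Eed (2.54 to 3.52) lies wholly below the median of its table.

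ChIRP-seq peaks were nearest to 4 of the 10 genes, each with a single peak, and to 12.1% of the 26220 genes. That contrast, too, chose the genes. The score of a peak is the authors' deposited MACS score, used only to describe peaks within this list, whose median is 34.3. A gene is called nearest at any distance.

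Exosc6, a ring subunit of the exosome, had the highest score of the 4. Its peak (chromosome 8, 113582869 to 113583653) scored 49.46, at position 445 of 4286, and is annotated as intergenic at a TSS distance of 3022 bases. The Ezh1 peak (chromosome 11, 101086414 to 101087481) scored 47.92, at position 505. It lies in intron 1 of 20 at a TSS distance of 817 bases, and its detailed annotation is a B1 element of the SINE class, which 6.72% of all peaks carry. Aebp2, a zinc finger accessory subunit of PRC2, had a peak of 33.36 in intron 4 of 7 (chromosome 6, 140591095 to 140591789), at 18623 bases. The Ezh2 peak (chromosome 6, 47571071 to 47571682) scored 30.14 and is intergenic, at a TSS distance of -26347 bases. Only 2.17% of all peaks scored lower than that of Ezh2, so the peak assigned to this subunit stands just inside the list.

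The 4 peaks thus form a pair within 3.02 kb of a start site and a pair at 18.6 and 26.3 kb. The near pair scored above 89.6% and 88.2% of all peaks, and the far pair below the median score. Peaks nearer to a TSS than that of Ezh1 made up 12.5% of the list, and nearer than that of Ezh2 64.2%. None of the 4 is in the promoter class, which holds 9.45% of all peaks. Widths were 785, 1068, 695 and 612 bases in the order of score, beside a median of 646.

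**Figure D3:**
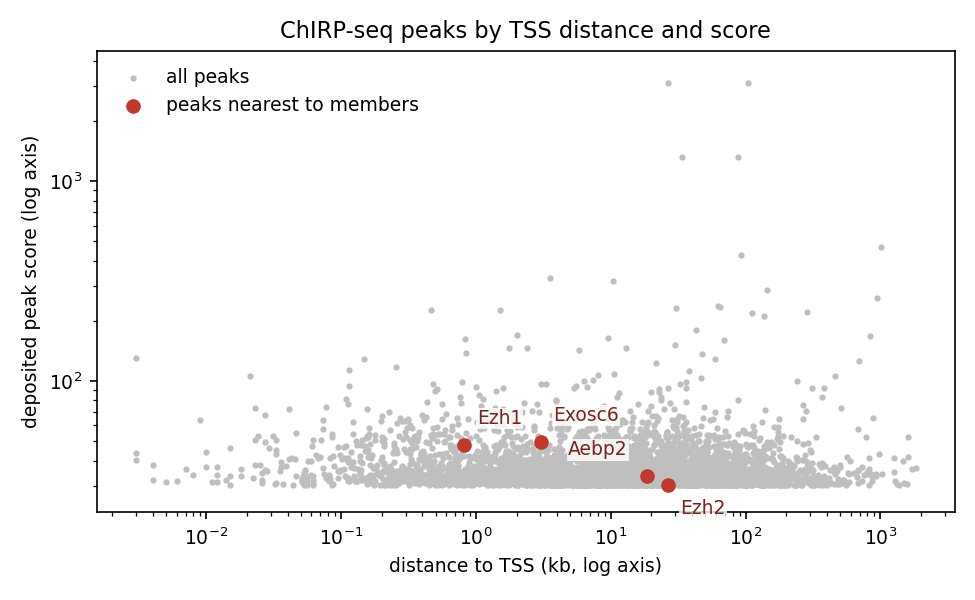
Distance to the nearest TSS (kb, log axis) against the deposited score (log axis) for all 4286 ChIRP-seq peaks in grey and the 4 peaks nearest to Exosc6, Ezh1, Aebp2 and Ezh2 in red. Exosc6 (49.46) and Ezh1 (47.92) sit above most peaks, and Ezh2 (30.14) lies at the lower edge.

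The surroundings of the Ezh2 peak hold stronger peaks of another kind. Of the 15 peaks assigned to Rn4.5s, a small RNA gene present in many copies, 6 lay within 100 kb of it, the nearest at 24.8 kb. They scored 78.7 to 228. The Ezh2 peak lies between the Ezh2 start and those peaks. The part of the multi-copy sequence in the Ezh2 peak was not tested.

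The 4 peaks also lie on chromosomes rich in peaks. Chromosomes 6, 8 and 11 held 45.2% of all peaks. On these 3 chromosomes 26.8% of the 4576 genes were nearest to a peak, and 8.99% of the 21644 genes elsewhere. Chromosome 19, counted as elsewhere, had 27.6% of its genes nearest to a peak. Among 34 PRC2 and exosome genes, 5 of the 9 on these 3 chromosomes had a peak and 1 of the 25 elsewhere. These 3 chromosomes were picked because the 4 peaks lie on them, and those peaks chose the genes. Nothing is therefore read from this split. The part of chromosome in the peaks of these genes was not tested.

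Ezh1 was the gene where both assays met. Its ncRNA runs along the gene from 8 to 8055 bases past the TSS, which was placed from the deposited TSS distance of the peak. The peak reaches from 283 to 1350 bases past the TSS, so all 1068 bases of it lie within the ncRNA. Genes with both a peak and a promoter ncRNA numbered 282, and in 74 of them (26.2%) a peak overlapped a promoter ncRNA of the same gene. Without strand, reads of this ncRNA and of unspliced Ezh1 RNA cannot be told apart. Ezh1 mRNA itself is not among the mRNA candidates.

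**Figure D4:**
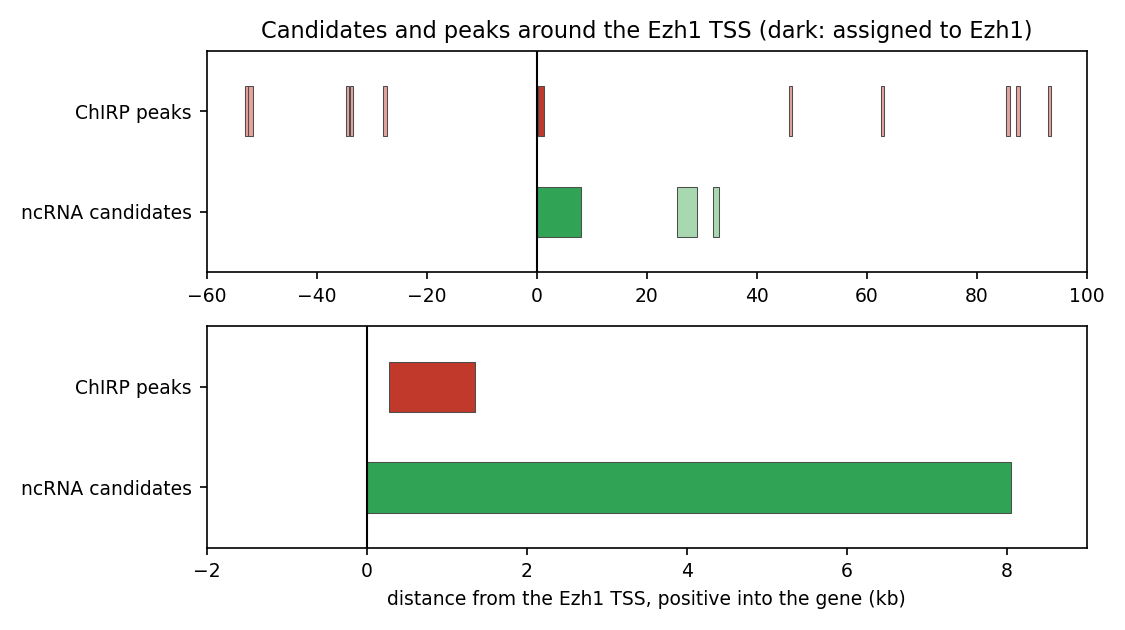
Positions relative to the Ezh1 TSS (kb, positive into the gene) of ncRNA candidates (green) and ChIRP-seq peaks (red), those assigned to Ezh1 dark and the others pale. The lower panel enlarges the start of the gene, where the peak (283 to 1350 bases) lies inside the ncRNA (8 to 8055 bases).

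Within 100 kb of the Ezh1 ncRNA were 10 more peaks and 2 more ncRNA candidates. The nearest of these peaks belonged to Vps25 (30.95, at 27155 bases), and the highest score was that at Cntnap1 (45.7). The Ezh1 peak of 47.92 exceeded all 10. The ncRNA candidates were NONMMUT012049 (5.56-fold, 17525 bases away) and NONMMUT012048 (12.1-fold, 23973 bases away, with an input of exactly 1 RPKM). By fold of the promoter ncRNA, the 3 genes most like Ezh1 among the 281 others found in the same pair of tables were D11Wsu47e, LOC100862268 and Plxnb2. They had folds of 7.78, 7.78 and 7.74, and peaks of 46.7, 35.4 and 34.7 at TSS distances of -104, 39875 and -3060 bases.

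The other genes differed in how crowded their surroundings were. Near the Exosc3 transcript, at 7892 bases, lay NONMMUT047087 (14.2-fold), and NONMMUT047088 (3.7-fold) and 2 ncRNAs at Dcaf10 (17.4 and 12.8-fold) were within 100 kb. The mRNA of Frmpd1, listed with 2 transcripts, lay 30677 bases away. Rbbp4 had NONMMUT049625 (43.4-fold, from only 0.088 RPKM in the input) at 17338 bases and NONMMUT049626 (5.32-fold) at 17636. The folds of these neighbouring candidates carry no interval. The peak at Aebp2 had 1 ncRNA candidate, NONMMUT059308 (4.09-fold), 10988 bases away. In 3 of these ncRNAs, NONMMUT047088, NONMMUT049626 and NONMMUT059308, the input is exactly 1 RPKM, as in 25.2% of all ncRNA entries. With such an input, also that of NONMMUT012048 near Ezh1, the fold is only the pull-down RPKM. The 1 may be a filled-in value that was not measured. The Exosc6 peak had 5 other peaks within 100 kb, the nearest at Aars (30.14, 22002 bases), and 1 ncRNA candidate at 83880 bases. By contrast, Mphosph6, Eed, Phf19 and Rbm7 had no other candidate or peak within 100 kb.

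Seen over a list of 34 genes of both machineries, 13 (38.2%) were in at least 1 table and 21 in none. Over all 26220 genes 21.7% were in at least 1 table. The list was drawn up with earlier results known and 10 of the 13 were chosen by being in a table, so nothing is read from the difference. Of the 6 core PRC2 genes 5 were listed, and besides Ezh1, Ezh2, Eed and Rbbp4 this includes Suz12. The promoter ncRNA at Suz12 (chromosome 11, 79809088 to 79813066) had 0.703 RPKM in the input and 3.95 in the pull-down, a fold of 5.61 (3.19 to 10.7). Rbbp7 was in no table. Of the 7 genes counted here as PRC2 accessory, Phf19 and Aebp2 were listed, and Jarid2, Phf1, Mtf2, Epop and Ezhip were not. The 34 genes are a chosen list and need not hold every gene of either machinery.

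On the exosome side, 2 of 9 core subunits were listed, Exosc3 and Exosc6, a share (22.2%) near that of all genes. The 3 nucleases Exosc10, Dis3 and Dis3l were in no table. Of 9 cofactors 4 were listed: Mphosph6, Rbm7 and the poly(A) polymerases Tent4b and Tent4a, which the files name Papd5 and Papd7. Tent4b had a peak of 51.9 in intron 2 of 11 at a TSS distance of 6643 bases, and Tent4a one of 32.2 in intron 5 of 12 at 23700 bases. C1d, Mtrex, Zcchc8, Zcchc7 and Zfc3h1 were in no table. Of the partners in the complex that the study names, Exosc10 and C1d were thus listed nowhere, and Ezh2 by its low-scoring peak alone. Absence from selected lists shows no absence of binding.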

How the data were processed

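The RPKM values of input and pull-down and their fold, a ratio of both, were deposited by the authors, with RPKM rounded to 3 decimals. Peaks with a MACS score and, from HOMER, the distance to the nearest TSS are the authors' deposited values. Per the submitters' processing notes, which give no roles, both assays used build mm9, HOMER, bedtools (2.15 in the pull-down), SAMtools, Bowtie2 and FastQC. MACS is named for ChIRP-seq alone, and Picard 1.119 and Trimmomatic for the pull-down alone.

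The genes and lists were chosen with earlier results of these data known. All 10 genes are named, with the listed genes of the PRC2, exosome and PRC1 lists (a result on the last is not reported here), the nearest candidates and peaks within 100 kb, and the 3 genes most like a gene found in more than 1 table. Former symbols were matched through RefSeq (GRCm38.p6). Read numbers were recovered as RPKM times span, which fell within 0.15 reads of whole numbers in 100% of values with enough decimals. Denominators were 23.86 M and 42.02 M reads (mRNA input and pull-down) and 9.66 M and 14.97 M (ncRNA). Of ncRNA numbers 79.2% were even in the input and 66.8% in the pull-down, so ncRNA reads were counted as pairs. Of mRNA numbers 55.4% and 50.9% were even, and mRNA reads were counted singly. If mRNA reads also came in pairs, the mRNA intervals are too narrow. Intervals are 95% exact conditional (Clopper-Pearson) intervals, PCR copies cannot be separated, and no test was made because each group is 1 library. Depth recovery and interval coverage were tested on simulated data. Python 3.11.15, numpy 2.4.6, pandas 2.3.3 and scipy 1.17.1 were used.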

Additional observations from a re-analysis of the deposited data

How the results depend on the processing

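Of 55 alternative values of 19 results, 47 stayed within counting error or within 1.5 times the reported count, and 8 did not. Some of the 47 could not move, such as counts of the 10 genes by deposited name, by which they were chosen. Others could hardly move, such as the lowest fold that rounding allows. The tally is therefore no measure of robustness. Genes nearest to peaks were 2 of the 10, in place of 4, with scores of at least 40 and also within 10 kb of the TSS (Exosc6 and Ezh1 in each case). In the list of 34 they were 3 under each of these settings, in place of 6. With a pseudocount of 0.1 RPKM the folds became 3.38 for Mphosph6 and 2.47 for Eed, outside their counting intervals, as a constant added to low RPKM lowers a ratio by construction. Entries with another ncRNA candidate nearby were 2 within 10 kb in place of 6 within 100 kb. The 2 were the Exosc3 transcript and the Ezh1 peak, whose neighbour is the ncRNA of Ezh1 itself. Among the 6, Ezh1 counts with both its ncRNA and its peak. The 6-base seed match was in 1 promoter and the 7-base match in 0. A fold of at least 5 left 2 of the 3 mRNA genes and all 4 promoter ncRNA genes. With ncRNA reads counted singly the lower bounds were 6.54 for Rbbp4, 4.85 for Ezh1, 4.55 for Rbm7 and 2.28 for Phf19. The Phf19 fold is limited by its 2 input reads. ChIRP-seq depth is unknown, and a gene absent from a list may have been too low to be listed. No replicate could be left out.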

Other observations

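Some genes of PRC1, the complex that places ubiquitin on histone H2A at Polycomb targets, were in the tables. Bmi1 mRNA, which encodes a partner of the ubiquitin ligase, had 0.297 RPKM in the input and 0.825 in the pull-down, a fold of 2.78 (95% exact counting interval 2.14 to 3.66). Pcgf1, a subunit of variant PRC1, had a promoter ncRNA of 3.53-fold and a peak in intron 1 of 8, 376 bases past the TSS, with a score of 55.4. The input behind that fold is exactly 1 RPKM, a value shared by 457 of the 2432 promoter ncRNA entries (18.8%), so it carries no interval. Pcgf5, Phc1 and Rybp were nearest to peaks of 32.0, 30.8 and 30.7, at TSS distances of 68063, -48777 and -115464 bases. Like Ezh1, Pcgf1 was found in 2 tables.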
